A study of Macaca mulatta with 16 samples.

Results

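The late response of the fetal lung to intraamniotic LPS alone was measured in 7 of the 16 rhesus macaque fetuses of the study. Of these, 3 had been exposed to LPS and delivered 5 days later (LPS 5d, animals 239, 240 and 242), and 4 were untreated preterm controls (animals 092, 101, 113 and 209). The animals were taken by their labelled treatment, interval and age at delivery, and no measured value entered that choice. All 22515 genes of the table were considered and 19199 had enough counts to be tested.

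The LPS fetuses received 1 mg of LPS into the amniotic fluid at 126 to 129 days of gestation, had no second treatment and were delivered at 131 to 134 days. The controls had no treatment and were delivered at 131 to 135 days, so that both groups were preterm and of overlapping age. Each animal gave 1 library of poly(A) RNA from frozen left lung. A further 4 fetuses, delivered at 130 or 131 days and 16 hours after the same dose (LPS 16h), were used to set the late levels against the early ones. The labels give no sex, no sequencing batch and no genetic modification, and only 1 dose and 1 late time point were available. Whole tissue was sequenced, so fewer cells of a type and less RNA per cell cannot be told apart in any value given here.

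LPS is a component of the outer membrane of Gram-negative bacteria, and cells recognize it through CD14 and the receptor TLR4. The fetus draws amniotic fluid into its airways, so the airway epithelium is among the first surfaces exposed. In the last part of gestation the lung thins its mesenchyme, expands its capillary bed and begins to store surfactant, and fetal inflammation is known to change the timing of these steps.

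Values are given in CPM, the counts of a gene per 1000000 counts of its library, after the library totals were scaled by TMM, a factor trimmed of extreme genes that makes libraries comparable. Where CPM values are listed by animal, they stand in the order 092, 101, 113 and 209 for the controls and 239, 240 and 242 for LPS 5d. A log2 fold change is the difference of the group means of log2 CPM, given ± its standard error, with 3 LPS animals against 4 controls. Genes were called higher or lower, and are said to have risen or fallen, at a Benjamini-Hochberg adjusted p below 0.05 (limma, two-sided) and a change of at least 2-fold. CPM is not corrected for transcript length, so it compares animals and not genes.

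Library totals were 20169363 to 28348816 counts in the controls and 20214144 to 27160740 with LPS 5d. On the first principal component of the 7 animals (34.71% of the variance) the LPS animals lay between 41.8 and 52.9 and 3 controls between -56.6 and -38.0, with control 209 nearer to the middle at -2.58. Control 209 also stood alone on the second component (20.48%), at -68.3. The summed level of Y-linked genes was above 100 CPM in 3 of 4 controls and in 2 of 3 LPS animals, so each group held animals with and without them. The animals below that level were control 209 (2.84 CPM) and LPS animal 242 (2.33 CPM). LPS animal 240 stood apart in heart muscle genes: MYH7, the slow cardiac myosin heavy chain, was at 525 CPM there and between 0.656 and 2.33 CPM in the other 6 animals. The counts below were recomputed without each of these animals. All 12 genes fixed as defining markers of lung tissue were detected and none was called. Of 18 markers of other organs in the table, only 9 had enough counts to be tested, and none of those was called.

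At 5 days after LPS, 499 genes were higher and 429 lower than in preterm controls, which is 2.60% and 2.23% of the genes tested. Changes of 4-fold or more were seen in 106 genes that rose and 26 that fell. Genes that passed the adjusted p without the fold limit were more often lower, with 1054 higher and 1771 lower. Without animal 240, 340 genes were higher and 307 lower. The median log2 fold change of all genes tested was -0.0016, so changes are read against a centre near 0.

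**Figure D1:**
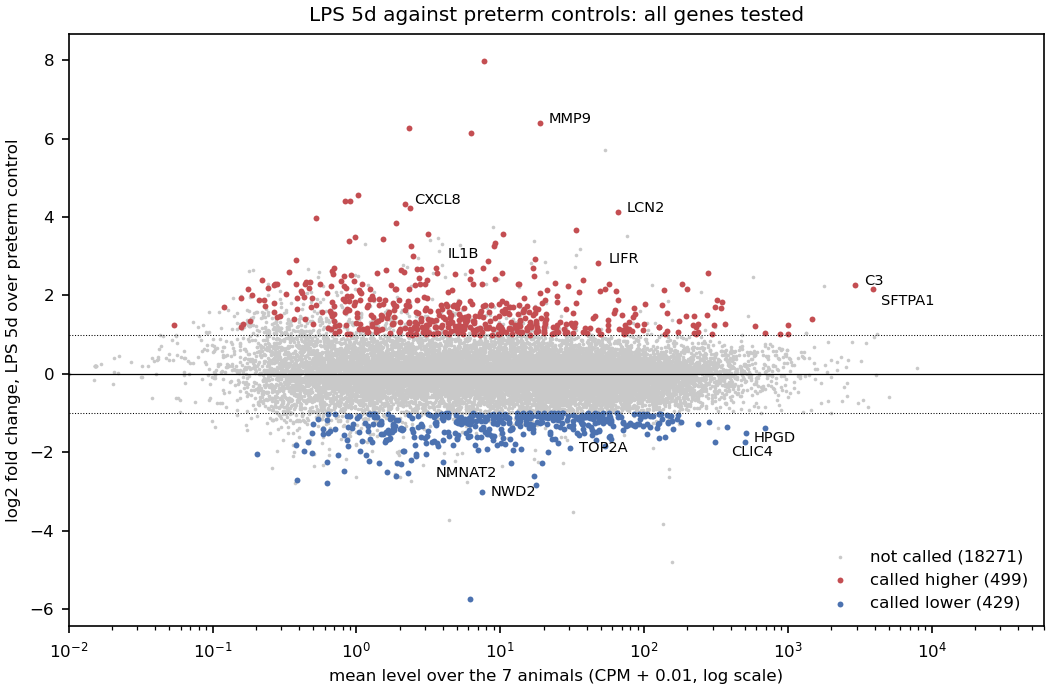
Log2 fold change of LPS 5d against preterm controls (vertical axis) against the mean CPM of the 7 animals (horizontal axis, log scale) for the 19199 genes tested, 1 point per gene, with called genes in colour and dotted lines at the 2-fold limit. Of the called genes, 499 lie above the upper line and 429 below the lower line, and MMP9 lies at 6.39 and NWD2 at -3.01.

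Groups of genes were described with 48 lists that had tested members. In 8 of them at least 5 members were called higher and in 2 at least 5 were called lower, while 11 had no called member. The lists with many members higher held myeloid, chemokine, cytokine, complement, defence, surfactant and iron genes, and those with many lower held mitosis and mesenchymal development genes.

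**Figure D2:**
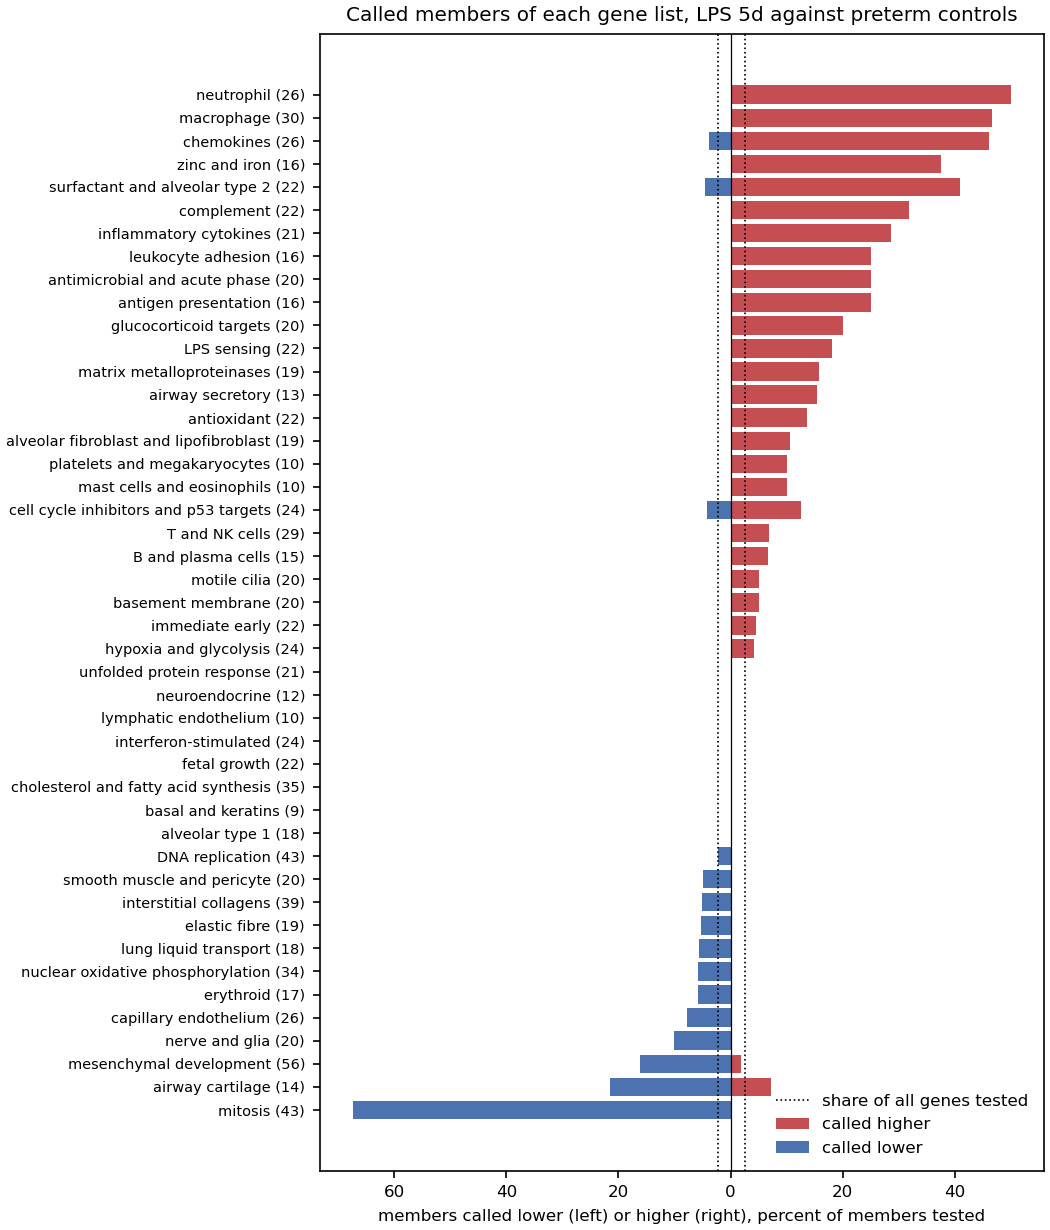
Percent of the tested members of each gene list that were called higher (right) or lower (left) in LPS 5d than in preterm controls, with dotted lines at the share over all genes tested (2.60% higher and 2.23% lower). The mitosis list reaches 67.4% on the lower side.

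Some cytokine and chemokine genes were still above the control level at 5 days. Of 21 inflammatory cytokine genes tested, 6 rose and none fell (median log2 fold change 0.73), and of 26 chemokine genes 12 rose and 1 fell (median 1.2). IL1B, which encodes the secreted cytokine interleukin-1 beta, was at 1.78, 0.602, 1.14 and 0.765 CPM in the controls and at 6.14, 7.26 and 7.27 CPM with LPS 5d. Every LPS animal was above every control, and the log2 fold change was 2.71 ± 0.55 (limma, adjusted p = 0.00486). At 16 hours IL1B had been at 1126 ± 380 CPM (SD, n = 4), a difference of -7.28 on the log2 scale between 5 days and 16 hours. CXCL8, the main neutrophil attractant, was at 0.0463 to 0.401 CPM in the controls, a mean of only 5 counts, and at 5.63, 3.61 and 5.09 CPM with LPS 5d. Its mean at 16 hours had been 576 ± 253 CPM.

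Other members of the same families kept smaller changes. NFKBIA, the inhibitor that NF-kappaB itself induces, was at 109, 91.9, 91.9 and 92.9 CPM in the controls and at 219, 228 and 176 CPM with LPS 5d (log2 fold change 1.10 ± 0.16, limma, adjusted p = 0.000556). The controls were close together and all LPS animals lay above them. CXCL16, a transmembrane chemokine, was at 49.7 to 51.9 CPM in the controls and at 118, 128 and 94.7 CPM with LPS 5d. CXCL17, a chemokine of mucosal epithelium, rose from 30.4 ± 1.91 CPM (SD, n = 4) to 114 ± 31.1 CPM (SD, n = 3). CCL2, which attracts monocytes, was at 8.70 ± 2.74 CPM and 25.4 ± 5.08 CPM (log2 fold change 1.58 ± 0.40, limma, adjusted p = 0.0181), and without LPS animal 240 the change was 1.45 with an adjusted p of 0.0749 (0.054 with limma's voom weights). CXCL14, which is made by resting epithelium and stroma, was the member that fell, from 61.8, 44.8, 63.7 and 153 CPM to 30.9, 24.9 and 16.9 CPM. The groups did not overlap, and the highest control was animal 209.

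TNF and IL6, cytokines of the acute response, did not pass the test. TNF was at 0.141 ± 0.102 CPM in the controls and 0.432 ± 0.145 CPM with LPS 5d, and at 37.8 ± 19.6 CPM at 16 hours. IL6 was at 0.0937 ± 0.103, 0.320 ± 0.221 and 174 ± 61.7 CPM in the same order. Against LPS 16h, 19 of the 21 cytokine genes were lower at 5 days (median -4.96) and none was higher.

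Genes of LPS recognition and its downstream response moved less. Of 22 tested, 4 rose and none fell (median 0.18). CD14, the LPS co-receptor, was at 28.6, 30.1, 30.4 and 43.5 CPM in the controls and at 81.8, 114 and 64.2 CPM with LPS 5d. The LPS animals were all higher, with a log2 fold change of 1.36 ± 0.20 (limma, adjusted p = 0.000678). SOD2, the mitochondrial superoxide dismutase that NF-kappaB induces, rose from 81.5 ± 9.27 to 187 ± 19.7 CPM, after 7069 ± 1126 CPM at 16 hours. Of the 24 interferon-stimulated genes, none was called in either direction (median -0.26), while 19 were lower than at 16 hours. In 8 of the 24 every LPS 5d animal was below every control and in 3 above (15.6% and 13.6% of all genes tested). Their summed CPM was 1196 to 1463 in the controls and 1115 to 1188 with LPS 5d.

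**Figure D3:**
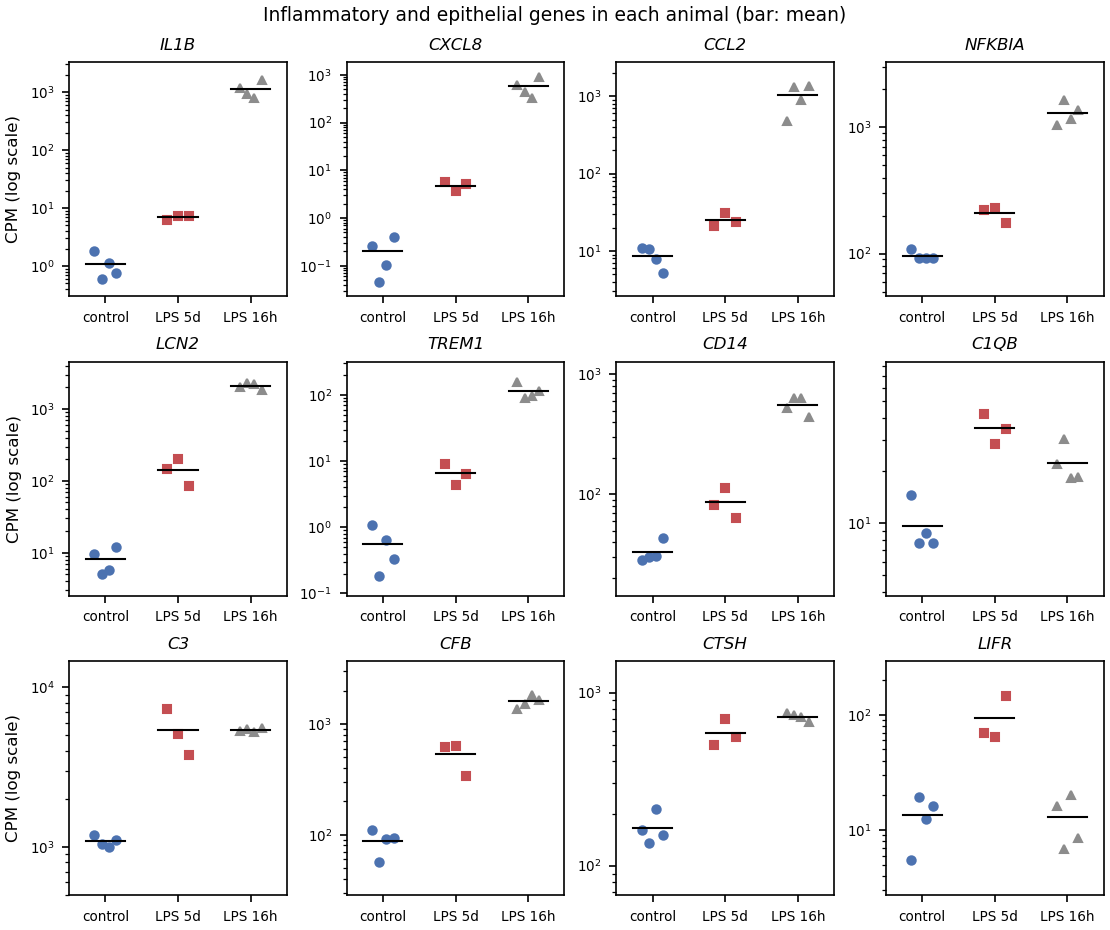
CPM (log scale) of 12 immune and defence genes in each preterm control, LPS 5d and LPS 16h animal, 1 point per animal, with bars at the group means. IL1B, CXCL8, CCL2 and NFKBIA at 5 days lie between the controls and the 16-hour animals, whereas C3 at 5 days (mean 5385 CPM) is at the 16-hour mean (5404 CPM) and LIFR (93.1 CPM) is above it (12.9 CPM).

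Many genes of phagocytes were called higher. Of 26 neutrophil genes 13 rose (median 1.18) and of 30 macrophage genes 14 rose (median 1.28), with none lower in either list. Beside these, the summed CPM of the whole neutrophil list was 69.5 to 98.7 in the controls and 319 to 376 with LPS 5d, and that of the macrophage list 1272 to 1535 and 2232 to 2395. PTPRC, the marker of all leukocytes, was at 16.2 to 27.3 CPM in the controls and at 34.4, 24.1 and 41.7 CPM with LPS 5d and was not called. How far more leukocytes and more RNA per leukocyte contributed was not tested.

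MMP9, a gelatinase stored by neutrophils, had the largest log2 fold change of the named genes with at least 10 counts in both groups, 6.39 ± 0.90 (limma, adjusted p = 0.000762). It was at 0.827, 0.509, 0.462 and 0.109 CPM in the controls and at 72.8, 28.6 and 29.5 CPM with LPS 5d. LCN2, which binds bacterial siderophores and is made by both neutrophils and epithelium, was at 9.54, 5.05, 5.68 and 12.1 CPM and at 147, 200 and 83.6 CPM (log2 fold change 4.14 ± 0.35, limma, adjusted p = 4.93e-05). For both genes the lowest LPS animal was several-fold above the highest control. TREM1, a receptor that amplifies inflammatory signals on myeloid cells, rose from 0.560 ± 0.400 to 6.57 ± 2.32 CPM. NCF1, a subunit of the phagocyte NADPH oxidase, rose from 2.37 ± 0.709 to 7.84 ± 0.594 CPM, and ALOX5AP, needed for leukotriene synthesis, from 3.87 ± 0.708 to 11.6 ± 2.58 CPM. S100A9, a calcium-binding protein abundant in neutrophils, was called (log2 fold change 1.85), but LPS animal 239 (6.57 CPM) lay below control 113 (7.74 CPM). Its adjusted p rose above 0.05 without control 092, with a change of 1.73, and without LPS animals 240 or 242, with changes of 1.68 and 1.45, and was 0.0738 with limma's voom weights.

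Against LPS 16h, 11 of the 30 macrophage genes were lower and 2 higher at 5 days. SPI1, a transcription factor that sets myeloid identity, was at 3.22, 3.01, 3.12 and 2.92 CPM in the controls and at 12.5, 9.75 and 10.1 CPM with LPS 5d (log2 fold change 1.78 ± 0.24, limma, adjusted p = 0.000453). C1QB, a chain of the complement component C1q that resident macrophages secrete, was at 14.5, 7.69, 8.73 and 7.65 CPM and at 42.2, 28.3 and 34.5 CPM. All LPS animals were above all controls in both genes. SPI1 was at 46.7 ± 6.67 CPM at 16 hours, and its difference between 5 days and 16 hours was -2.10 (limma, adjusted p = 9.7e-06). C1QB was at 22.1 ± 5.66 CPM at 16 hours, and the difference between 5 days and 16 hours was 0.67 with an adjusted p of 0.0999 (limma). CD163, the haemoglobin scavenger receptor, rose from 7.95 ± 2.86 to 23.0 ± 4.11 CPM, after 96.2 ± 33.6 CPM at 16 hours. MARCO, a scavenger receptor of alveolar macrophages, had no count in any control and was at 1.96, 3.46 and 0.380 CPM with LPS 5d. The mean of these 3 animals, 1.93 CPM, was at least 13.9-fold above the level that 3 counts per control library allow. The single animals ranged from 8 to 90 counts, so this ratio does not hold for each of them. MARCO lost its call without animal 240 (limma, adjusted p = 0.0649) and with limma's voom precision weights (adjusted p = 0.208).

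Antigen presentation genes were higher as well, with 4 of 16 called and 15 of 16 on the higher side (median 0.73). CD74, the invariant chain of MHC class II, was at 189, 186, 156 and 177 CPM in the controls and at 570, 614 and 514 CPM with LPS 5d (log2 fold change 1.68 ± 0.21, limma, adjusted p = 0.000299). IFI30, a lysosomal thiol reductase that prepares antigens, rose from 21.5 ± 2.81 to 97.0 ± 12.4 CPM. In both genes the groups were far apart and the spread within each was small.

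Of 29 T and NK cell genes 2 were called higher, GZMB and KLRB1, and of 15 B and plasma cell genes 1. Without the fold limit 7 of the 29 passed on the higher side, and 26 were on that side (median 0.59). In 10 of the 29 every LPS animal was above every control (13.6% of all genes tested). The summed CPM of the T and NK list overlapped, at 310.5 to 399.7 in the controls and 311.9 to 440.4 with LPS 5d. KLRB1 lost its call without LPS animal 242 or control 113 (0.94 and 0.97). GZMB, the granzyme of cytotoxic cells, was at 13.2, 13.4, 8.09 and 7.61 CPM in the controls and at 20.5, 26.9 and 25.3 CPM with LPS 5d. Every LPS animal was higher, with a log2 fold change of 1.23 ± 0.21 (limma, adjusted p = 0.00162). Of 16 leukocyte adhesion genes 4 rose, of which ITGAM, an integrin chain of myeloid cells, lost its call when any of the 7 animals was left out (log2 fold changes of 0.91 to 1.2).

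Complement genes were higher: 7 of 22 rose, none fell, and 20 were on the higher side (median 0.63). C3, the central component of the cascade, was at 1193, 1040, 999 and 1113 CPM in the controls and at 7286, 5103 and 3764 CPM with LPS 5d (log2 fold change 2.26 ± 0.18, limma, adjusted p = 1.88e-05). The controls hardly varied and the lowest LPS animal was more than 3 times the highest control. CFB, factor B of the alternative pathway, was at 110, 56.9, 92.2 and 93.1 CPM and at 623, 632 and 342 CPM. C5, which gives the chemoattractant C5a, rose from 155 ± 39.0 to 428 ± 24.7 CPM, and it was 0.59 higher on the log2 scale than at 16 hours (288 ± 50.1 CPM, limma, adjusted p = 0.0441). The protease C1S of the classical pathway rose from 157 ± 26.9 to 514 ± 124 CPM, and C3AR1, the receptor for C3a on leukocytes, from 2.44 ± 0.542 to 8.78 ± 1.97 CPM.

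Of 13 airway secretory genes 2 rose and none fell (median 0.12), and of 20 antimicrobial and acute phase genes 5 rose and none fell (median 1.04), or 3 without LPS animal 240 or 242. MUC1, a membrane mucin of the alveolar type 2 list, was at 124, 122, 123 and 136 CPM in the controls and at 320, 390 and 349 CPM with LPS 5d (log2 fold change 1.48 ± 0.12, limma, adjusted p = 2.32e-05). WFDC2, a secreted protease inhibitor of the airway list, rose from 54.1 ± 5.35 to 250 ± 94.1 CPM. Neither gene showed overlap of the groups. MMP7, a matrix metalloproteinase of epithelium, was at 73.4 to 83.7 CPM in the controls and at 266, 413 and 405 CPM with LPS 5d. Of 19 matrix metalloproteinase and inhibitor genes, 3 rose (MMP7, MMP9 and MMP25) and none fell.

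Of 16 zinc and iron genes 6 rose (median 0.39). CP, the copper ferroxidase ceruloplasmin, was at 69.1, 85.2, 43.4 and 81.5 CPM in the controls and at 294, 374 and 326 CPM with LPS 5d (log2 fold change 2.29 ± 0.23, limma, adjusted p = 0.000117). SLC39A8, an importer of zinc and manganese, was at 99.9, 94.5, 221 and 200 CPM and at 422, 697 and 502 CPM. Both ferritin chains, which store iron, were higher: FTH1 rose from 638 ± 149 to 1500 ± 142 CPM and FTL from 615 ± 46.3 to 1245 ± 19.3 CPM. HMOX1, which frees iron from haem, rose from 9.88 ± 0.958 to 23.9 ± 6.90 CPM. FTL stood just past the 2-fold limit (log2 fold change 1.02), and ferritin genes have many processed copies in primate genomes, among which reads could be split.

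Surfactant and alveolar type 2 genes were mostly higher, with 9 of 22 called higher, 1 called lower and a median of 0.99. CTSH, a protease that processes surfactant protein B, was at 160, 135, 214 and 149 CPM in the controls and at 497, 707 and 552 CPM with LPS 5d (log2 fold change 1.84 ± 0.22, limma, adjusted p = 0.000298). SFTPA1, a collectin of surfactant that binds microbes, was at 955, 932, 2572 and 1796 CPM and at 3790, 10850 and 6234 CPM. The LPS animals were all above the controls but ranged widely. SFTPA1 lost its call without LPS animal 240 (log2 fold change 1.80) or 242 (2.17) and without control 092 (1.97) or 101 (1.95), against 2.16 ± 0.58 with all animals (limma, adjusted p = 0.0246). SFTPD, another collectin of surfactant, rose by 1.41 ± 0.22 (limma, adjusted p = 0.00104). The surfactant protein genes SFTPB and SFTPC, which are among the 12 defining lung markers, were not called. Their log2 fold changes were 0.72 to 1.14 and 0.87 to 1.21 as 1 animal was left out.

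Alveolar type 1 genes, which mark the flat gas-exchange cells, showed no call among 18 (median 0.14), but 13 of the 18 were higher than at 16 hours (median 1.28). AGER, an abundant receptor of these cells, was at 874 ± 258 CPM in the controls, 1190 ± 539 CPM at 5 days and 507 ± 82.6 CPM at 16 hours.

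Mitosis genes were lower throughout. Of 43 tested, 29 fell, 37 passed the adjusted p on the lower side, all 43 were on the lower side, and in 39 every LPS animal was below every control (15.6% of all genes tested were lower without overlap, and 13.6% were higher). The median was -1.19. The summed CPM of the list was 501 to 698 in the controls and 277 to 298 with LPS 5d. TOP2A, the topoisomerase that untangles replicated chromosomes, was at 36.8, 40.3, 62.7 and 38.6 CPM in the controls and at 11.9, 11.9 and 11.5 CPM with LPS 5d. The LPS animals were almost identical, and the log2 fold change was -1.89 ± 0.25 (limma, adjusted p = 0.000374). KIF23, a motor of the dividing cell's midbody, was at 11.8, 10.9, 12.6 and 9.51 CPM and at 4.47, 3.92 and 3.47 CPM. MKI67, the proliferation antigen Ki-67, fell from 38.2 ± 7.07 to 16.6 ± 1.59 CPM, and CDK1, the kinase that drives entry into mitosis, from 16.4 ± 2.73 to 6.29 ± 1.32 CPM.

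Of 43 DNA replication genes tested, 1 was called lower (2.33%, against 2.23% of all genes), 8 passed the adjusted p without the fold limit, and the median was -0.23. The changes were small, but 36 of the 43 were on the lower side. In 18 every LPS animal was below every control (15.6% of all genes tested). The summed CPM of the list was 795.6 to 891.6 in the controls and 704 to 747.1 with LPS 5d. MCM2, a subunit of the replicative helicase, was at 24.6, 20.8, 24.2 and 25.6 CPM in the controls and at 20.5, 21.8 and 18.9 CPM with LPS 5d. These ranges overlapped, and the log2 fold change of -0.22 had a 95% interval of -0.48 to 0.04. RRM2, a subunit of ribonucleotide reductase, was the called member (-1.06), and its change was under 2-fold without LPS animal 242 (-0.92) or control 113 (-0.99). The difference between the mitosis and the replication list was not tested as such.

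Among 24 cell cycle inhibitors and p53 targets, 3 rose and 1 fell (median 0.07). CDKN2C, an inhibitor of the G1 kinases, was the one that fell, from 13.9, 9.87, 14.4 and 8.53 CPM to 5.52, 5.07 and 4.61 CPM. BBC3, which encodes the pro-apoptotic protein PUMA, was at 6.71, 4.35, 4.12 and 5.17 CPM and rose to 15, 11 and 8.89 CPM. For both genes the groups were apart. BBC3 was also higher than at 16 hours (3.89 ± 0.273 CPM, log2 difference 1.53, limma, adjusted p = 5.77e-05). BTG2 and ZMAT3 were called higher too, but less firmly. BTG2 lost its call without LPS animal 239 or 242 or control 113 or 209 (1.01 to 1.26). The same held with only the 7 animals (1.26) and with gestational age as a covariate (0.99). ZMAT3 lost its call without LPS animal 240 or 242 or control 092 or 113 (0.94 to 1.24) and with voom weights (1.16). CDKN1A, the p21 inhibitor, was at 22.5 ± 2.43 and 28.2 ± 4.15 CPM and was not called.

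**Figure D4:**
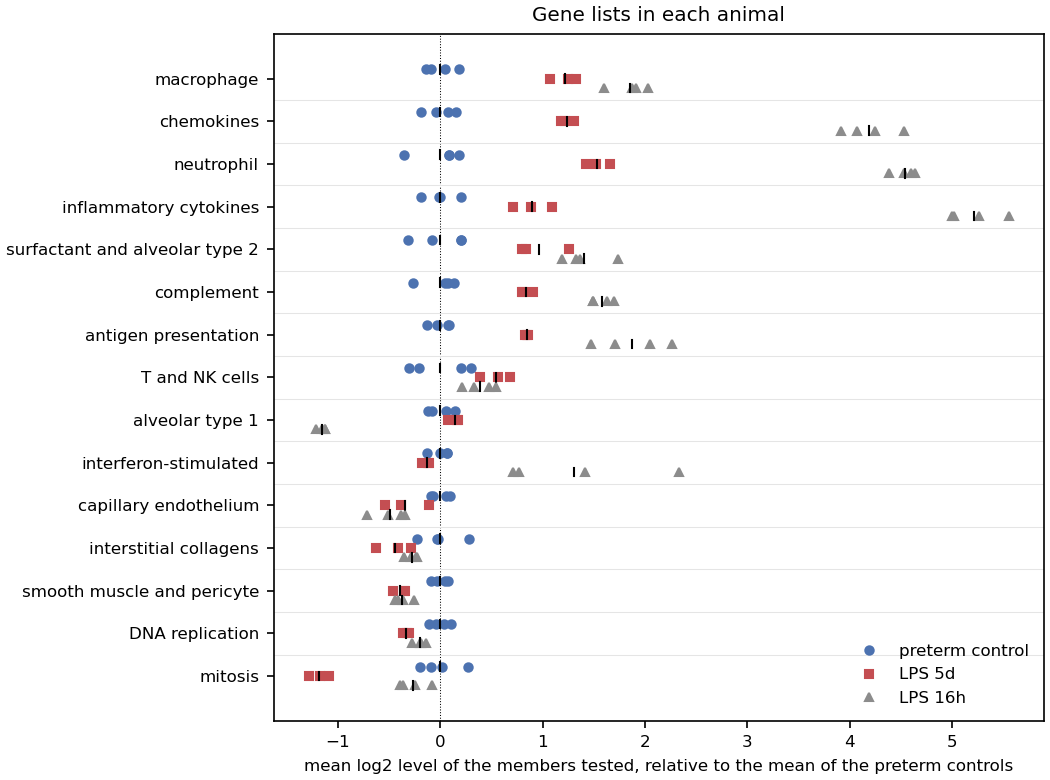
Mean log2 level of 15 gene lists in each preterm control, LPS 5d and LPS 16h animal, relative to the mean of the controls (0 on the horizontal axis), 1 point per animal, with black ticks at the group means. The mitosis list lies below 0 in the 3 LPS 5d animals, the macrophage and neutrophil lists lie above 0, and the cytokine list lies far higher at 16 hours than at 5 days.

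In the vessels, HPGD, which inactivates prostaglandins and is strong in lung capillary cells, was at 751, 652, 769 and 700 CPM in the controls and at 189, 188 and 275 CPM with LPS 5d (log2 fold change -1.74 ± 0.26, limma, adjusted p = 0.000642). All LPS animals were far below the controls. Its level at 16 hours was 251 ± 44.6 CPM, so the 5-day and 16-hour groups differed by only -0.22 (limma, adjusted p = 0.55). EDNRB, the endothelin receptor of the aerocyte capillary cell, was at 596, 350, 306 and 251 CPM and at 125, 159 and 180 CPM, and without control 092 the change was just under 2-fold (-0.97). CLIC4, an intracellular chloride channel protein of endothelial tube formation, fell from 445 ± 92.5 to 133 ± 30.2 CPM, below the 312 ± 79.2 CPM of 16 hours. Of 26 capillary endothelial genes as a whole, HPGD and EDNRB were the 2 called, 21 were on the lower side and the median was -0.36.

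Few smooth muscle and matrix genes were called. MYOCD, the coactivator of the smooth muscle programme, was at 30.0, 28.2, 26.7 and 25.1 CPM in the controls and at 12.6, 16.6 and 10.2 CPM with LPS 5d (log2 fold change -1.09 ± 0.26, limma, adjusted p = 0.0124), and it lost its call without LPS animal 239 (-1.04) or 242 (-0.92). It was the only member called of 20, of which 17 were on the lower side. In 13 of the 20 every LPS animal was below every control and in 1 above (15.6% and 13.6% of all genes tested). MYH11, the smooth muscle myosin heavy chain, was at 1004, 798, 695 and 801 CPM and at 422, 376 and 440 CPM, with a log2 fold change of -0.99 ± 0.16 (limma, adjusted p = 0.001) that stood just short of the fold limit. ACTA2, smooth muscle actin, was at 670 ± 109 and 352 ± 26.1 CPM (-0.92).

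Of 39 interstitial collagen and matrix genes, 33 were on the lower side, and OGN and LOXL1 were called. Without the fold limit 8 passed the adjusted p on the lower side, and in 14 every LPS animal was below every control (15.6% of all genes tested). The summed CPM of the list was 25860 to 37300 in the controls and 16510 to 24320 with LPS 5d. COL1A1, COL1A2 and COL3A1 were not called. Leaving out 1 animal gave log2 fold changes of -1.18 to -0.41, -0.94 to -0.49 and -0.72 to -0.42 in that order. OGN, a small leucine-rich proteoglycan that regulates collagen fibrils, fell from 181 ± 50.5 to 56.9 ± 4.07 CPM. LOXL1, an enzyme that cross-links elastin, was at 87.0, 83.4, 74.3 and 85.9 CPM and at 44.4, 39.2 and 39.5 CPM. Its groups were well apart, but its change (-1.01 ± 0.12, limma, adjusted p = 0.000299) sat on the limit and fell between -0.95 and -0.99 without LPS animal 240 or 242 or control 092 or 209, and was -0.98 with median-of-ratios scaling. ELN, elastin itself, was at 2819 ± 367 CPM in the controls, 1741 ± 184 CPM at 5 days and 1118 ± 150 CPM at 16 hours, a log2 fold change of -0.69 against controls. In the basement membrane list the called member rose: COL4A6, a chain of the collagen IV of epithelial basement membranes, was at 127, 125, 194 and 170 CPM in the controls and at 289, 344 and 306 CPM with LPS 5d. Without control 092 or 101 its change of 1.04 was 0.96 or 0.95.

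Genes that guide the growth of the lung mesenchyme were divided. Of 56 tested, 9 fell and 1 rose (median -0.24), and without LPS animal 239 only 5 fell. BMP7, a bone morphogenetic protein ligand, was at 26.6, 24.2, 23.1 and 18.9 CPM in the controls and at 7.08, 9.64 and 9.27 CPM with LPS 5d (log2 fold change -1.42 ± 0.20, limma, adjusted p = 0.000483). BMP5, another ligand of that family, fell from 75.0 ± 4.15 to 35.3 ± 6.32 CPM. Neither showed overlap of the groups. LEF1, a nuclear partner of beta-catenin in Wnt signalling, fell from 45.3 ± 6.62 to 21.3 ± 4.33 CPM. The changes of BMP5 and LEF1 were under 2-fold without LPS animal 240 (-0.92 and -0.90).

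Among the genes of fibroblast growth factor signalling, SPRY4, an inhibitor that the pathway itself induces, was at 58.9, 90.8, 75.2 and 51.4 CPM in the controls and at 24.6, 26.3 and 35.5 CPM with LPS 5d (log2 fold change -1.25 ± 0.22, limma, adjusted p = 0.00207). Every LPS animal was lower. FGFR2, the receptor for the growth factors that the mesenchyme sends to the epithelium, was the member that rose, from 232, 153, 225 and 208 CPM to 304, 459 and 487 CPM. It was further above the 16-hour level (115 ± 10.8 CPM), by 1.83 on the log2 scale (limma, adjusted p = 1.01e-06). Its log2 fold change against controls was 1.01, and 0.96, 0.89 and 0.88 without LPS animal 240, LPS animal 242 and control 101. The ligands FGF9 and FGF10 were at 3.75 ± 1.60 and 14.1 ± 2.58 CPM in the controls and at 1.94 ± 0.724 and 8.81 ± 2.57 CPM with LPS 5d, and neither was called.

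Of 14 airway cartilage genes 3 fell (MATN3, COL2A1 and ACAN) and SOX6 rose. Without LPS animal 239 or 242 or control 113, 1 fell, as with only the 7 animals or with voom weights, and SOX6 lost its call without any of the LPS animals or without control 092 or 101 (1.05 to 1.46). MATN3, a cartilage matrix protein, was at 27.7, 26.9, 35.5 and 56.4 CPM in the controls and at 9.48, 10.9 and 10.2 CPM with LPS 5d (log2 fold change -1.77 ± 0.40, limma, adjusted p = 0.00872). The lowest control was more than 2 times the highest LPS animal. COL2A1, the cartilage collagen, ranged from 5.09 CPM to 87.8 CPM (animal 209) in the controls and from 2.80 to 4.38 CPM with LPS 5d, and it lost its call without any of the LPS animals or without control 113 (log2 fold changes of -2.41 to -2.09), with only the 7 animals (-2.24), with voom weights (-2.36) and with gestational age as a covariate (-1.96).

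**Figure D5:**
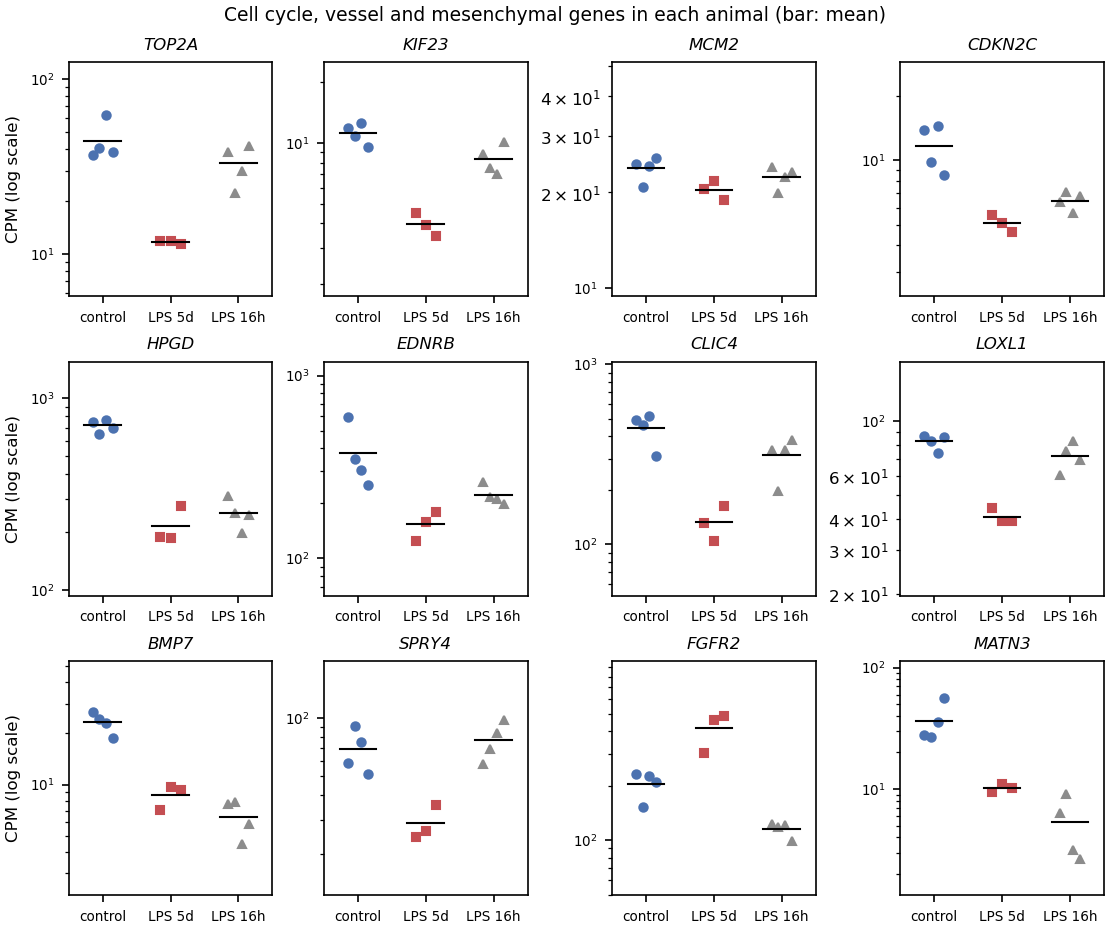
CPM (log scale) of 12 cell cycle, vessel, matrix and growth factor genes in each preterm control, LPS 5d and LPS 16h animal, 1 point per animal, with bars at the group means. TOP2A, KIF23, CLIC4, LOXL1 and SPRY4 are lower at 5 days than at 16 hours, HPGD and BMP7 are near the same low level at both times, MCM2 overlaps in all groups, and FGFR2 is highest at 5 days.

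Some of the largest changes were in genes outside these groups. NWD2, a little studied gene with NACHT and WD repeat domains, had the largest fall of the named genes with at least 10 counts in both groups, from 8.58, 11.1, 22.4 and 5.97 CPM to 1.31, 1.11 and 1.38 CPM (log2 fold change -3.01 ± 0.37, limma, adjusted p = 0.000299). NMNAT2, an enzyme of NAD synthesis best known from axons, was at 16.9, 17.1, 18.9 and 19.3 CPM and at 4.18, 2.53 and 4.66 CPM. Both were also low at 16 hours, at 1.58 ± 0.332 and 1.41 ± 0.613 CPM. Others among the 12 largest falls included the glutamate receptor subunit GRIA4, which fell by 2.53 on the log2 scale, the potassium channel partner KCNIP1, which fell by 2.24, and the calcium channel CACNA1G, which fell by 2.00.

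Among called genes, NREP, HPGD, CALCRL, KCTD12 and CLIC4 had the largest falls in CPM, a measure that also depends on transcript length and level. NREP, a gene of regenerating tissue, was at 1128, 1022, 878 and 759 CPM in the controls and at 421, 310 and 350 CPM with LPS 5d. CALCRL, the receptor for adrenomedullin on endothelium, was at 694 ± 178 and 257 ± 119 CPM, a log2 fold change of -1.50 (limma, adjusted p = 0.0308). Its adjusted p lay between 0.0602 and 0.162 (limma) without LPS animal 239 or 240 or control 092, 101 or 113.

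The 12 largest rises by fold also included genes of signalling and granule transport. LIFR, a receptor subunit for leukaemia inhibitory factor, was at 5.44, 19.5, 12.5 and 16.2 CPM in the controls and at 69.5, 64.3 and 145 CPM with LPS 5d (log2 fold change 2.83 ± 0.63, limma, adjusted p = 0.00921). The 16-hour animals were at 12.9 ± 6.24 CPM, like the controls, and the difference between 5 days and 16 hours was 2.88 (limma, adjusted p = 0.00282). The kinase gene MAP3K2 was at 1.22, 2.96, 1.95 and 2.77 CPM and at 15, 13.2 and 20.1 CPM. NFAT5, a transcription factor of osmotic stress, was at 2.44, 3.33, 4.01 and 14.1 CPM and at 27.9, 25.7 and 40.1 CPM, with control 209 the highest of the controls. MLPH, an adaptor that tethers secretory granules to myosin, was at 1.93 to 8.45 CPM and at 36.0, 69.8 and 105 CPM, and it lost its call without LPS animal 240 or 242 or control 092 (log2 fold changes of 3.64, 3.32 and 3.62). HK2, the inducible hexokinase of glycolysis, rose from 14.7 ± 5.11 to 62.0 ± 20.5 CPM, near its level at 16 hours (69.7 ± 8.44 CPM), and was the only called gene of 24 in the hypoxia and glycolysis list.

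Other groups with a part in lung inflammation or maturation held few or no called genes. None of 35 cholesterol and fatty acid synthesis genes, 22 fetal growth genes, 21 unfolded protein response genes, 10 lymphatic genes, 12 neuroendocrine genes or 9 basal cell and keratin genes was called. Without the fold limit, 6 of the 21 unfolded protein response genes passed on the lower side and 1 on the higher. In 10 every LPS animal was below every control and in 2 above (15.6% and 13.6% of all genes tested). Their summed CPM was 3083 to 3970 in the controls and 2578 to 2959 with LPS 5d. The sums of fetal growth genes (2995 to 3633 and 2571 to 2883) and neuroendocrine genes (80.4 to 85.1 and 54.8 to 68.8) were also lower without overlap. Those of the cholesterol, lymphatic and basal cell lists overlapped. Of the fetal growth genes 4 passed the adjusted p on the lower side and 1 on the higher, and of the neuroendocrine genes 0. Of 34 nuclear genes of oxidative phosphorylation 2 fell, but 22 were on the higher side and 12 on the lower (median 0.04). The electron carrier CYCS fell, at 64.9, 56.8, 58.2 and 39.0 CPM in the controls and at 20.3, 24.4 and 20.1 CPM with LPS 5d. NDUFA5, also called lower, changed by under 2-fold without LPS animal 239 or 240 or control 092 or 113 (-0.98 to -0.88). With median-of-ratios scaling its change was -0.98. Of 18 lung liquid transport genes only CA2, a carbonic anhydrase, was called, with a fall from 105 ± 16.2 to 44.7 ± 10.2 CPM. Of 20 glucocorticoid targets 4 rose (LCN2, NFKBIA, ZBTB16 and MT2A), of which LCN2 and NFKBIA are also genes of the inflammatory lists. ZBTB16 lost its call without LPS animal 239 or 240 or control 113 (1.28 to 1.55), and MT2A without any of the LPS animals or without control 092 or 113 (1.04 to 1.49). MT2A also lost it with voom weights (1.44) and with gestational age as a covariate (1.33). Of 20 motile cilia genes 1 was called, and of 17 erythroid genes 1.

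The direct comparison of both times after LPS gave far more differences. Against LPS 16h, 1278 genes (6.66%) were higher and 1522 (7.93%) lower at 5 days, with 250 and 531 changed by 4-fold or more. Lower at 5 days were 20 of 26 neutrophil, 16 of 26 chemokine, 17 of 21 unfolded protein response, 16 of 20 antimicrobial and 19 of 35 cholesterol and fatty acid synthesis genes. Alveolar type 1 genes (13 of 18) and 8 of 19 alveolar fibroblast genes were higher. Mitosis genes were lower at 5 days than at 16 hours too, in 23 of 43, and none was higher. This contrast shares the LPS 5d animals with the one against controls, and the 16-hour libraries were deeper (30596371 to 48052891 counts), so depth and time cannot be told apart in it.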

How the data were processed

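Lung RNA of 16 fetuses was sequenced by the authors as 75 bp paired-end poly(A) libraries. Per the labels and the study's methods, kallisto assigned reads to the rhesus build Mmul_10, tximport gave gene values, and DESeq2 was the authors' tool for their comparisons. The deposited table holds raw counts as whole numbers, 1 per animal for each Ensembl gene, and 629 of 22515 genes had no count. Tool versions, the annotation release and any rounding of estimated counts are not given in the sources used. The check of units could not read the layout of the table, so its unit was recorded as other and no count model was run.

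Library totals were scaled with TMM (trims of 30% and 5%) by a function written for this work. In R 4.3.3, log2 CPM values were computed with 2 as the prior count. A gene entered the test if it had 15 counts over all animals and reached 0.371 CPM, or 10 counts in the median library, in 2 animals or more. Each of the 19199 genes was fitted with limma 3.58.1 (trend and robust options) with 1 mean per group over all 16 animals, and p values were adjusted by Benjamini-Hochberg over all of them. The steps were tested on simulated data.

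The animals of a group are separate fetuses, and chi-square per degree of freedom between replicates was 31.1 to 64.9, far above the value of 1 that a repeated library would give. The precision is limited by the 3 and 4 animals more than by depth. Symbols were found for 17256 gene IDs, and symbols with more than 1 ID were left out of the lists. Of the 49 lists, with 1169 entries, 1034 entries were tested, and no gene of the mitochondrially encoded list was matched by symbol. Promoter motifs were not analysed here.

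Genes named are the 12 with the largest fold in each direction among called genes without overlap and with a mean of at least 10 counts in both groups, up to 4 called members of each list by adjusted p and its most abundant member, genes the study measured by other means, the 5 with the largest CPM difference in each direction, and those under 10 counts in a group, given without a fold. The lists of growth factor feedback and heart muscle genes and several single genes, among them CP, CFB, CTSH, MCM2 and the genes of the closing observations, were added after their values were seen. The members and all lists were chosen with earlier results of these data known. The alternatives tried were another scaling, prior count, filter, set of animals, variance model, weighting, gestational age as a covariate, no fold limit, and leaving out each animal.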

Additional observations from a re-analysis of the deposited data

Results flagged for a closer look

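Each of 50 gene lists and 228 named genes was checked for a preterm control that stood apart from the other 3 by a gap test, which chance alone passes in about 1 of 20 groups. It was passed for 4 lists and 22 genes (9.65% of the genes, read on the log2 scale).

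By mean log2 level relative to the mean of the controls, animal 092 was low in platelet and megakaryocyte genes at -0.64 (0.17 to 0.29 in the others) and animal 209 in Y-linked genes at -5.63 (1.82 to 1.94). Animal 101 was slightly low in mesenchymal development genes at -0.11 (0.03 to 0.05) and in heart muscle genes at -0.27 (0.06 to 0.12).

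Control 209 accounted for 12 of the 22 genes. It was low in SPRY1 (108.3 CPM), SPRED1 (46.7 CPM), LYPLA1 (31.37 CPM), BEX1 (33.41 CPM), FGF10 (10.27 CPM) and the Y-linked RPS4Y1 (0.9472 CPM). It was high in CD14 (43.54 CPM), MUC1 (135.8 CPM), ELN (3364 CPM), GREM1 (11.55 CPM), FOXI1 (0.2186 CPM) and CXCL13 (0.07286 CPM, 0 in the others). For CD14, MUC1 and SPRED1 this control lay on the side of the LPS animals without reaching them. By the direction of the log2 fold change, control 209 was also on that side in LYPLA1, FOXI1, CXCL13, SPRY1, FGF10 and BEX1. It was on the opposite side in ELN and GREM1.

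Control 101 was low in SPRY2 (44.27 CPM), ERBB3 (182.1 CPM), KYNU (0.5558 CPM) and GPR84 (0 CPM) and high in ACTC1 (6.808 CPM) and MMP25 (4.585 CPM). Control 113 was high in S100A9 (7.738 CPM), PBK (6.105 CPM) and IL6 (0.2485 CPM), and control 092 was high in NFKBIA (109.1 CPM).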

How the results depend on the processing

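No called gene named in the text changed direction under the alternatives run. Of named genes that were not called, ACTC1 (-1.78 to 1.92), RPS4Y1 (-2.40 to 2.68), LAMP3 (-0.05 to 0.71), SPRY2 (-0.09 to 0.14), VEGFA (-0.07 to 0.04) and TIMP3 (-0.06 to 0.01) crossed 0 as 1 animal was left out. List medians near 0 crossed it too, among them those of airway secretory genes (-0.28 without control 113) and of cell cycle inhibitors and p53 targets (-0.02 without control 101). The median of Y-linked genes went from -0.82 to 1.94 without LPS animal 242. The summed level of these genes was 2.33 CPM in animal 242 and 1049 and 1106 CPM in LPS animals 239 and 240. Without the fold limit, 1054 genes were higher and 1771 lower than in preterm controls, and 3044 higher and 3689 lower than at 16 hours, so that the share of higher genes among the calls fell from 53.8% to 37.3%. It was 57.3% with median-of-ratios size factors and 44.0% without LPS animal 242. The other settings gave 413 to 662 higher and 377 to 576 lower genes against controls, and leaving out 1 animal gave 340 to 560 and 307 to 589. Against LPS 16h, leaving out 1 animal gave 1155 to 1366 higher and 1396 to 1625 lower genes. With voom precision weights, 6 chemokine genes (of 12) and 3 antimicrobial genes (of 5) were called higher, and the chemokine median was 1.44 when only the 7 animals were fitted. Leaving out 1 animal gave 3 to 7 antimicrobial genes called higher, 5 to 8 mesenchymal development genes called lower, and medians of 0.56 to 0.87 for cytokines and 0.29 to 0.74 for zinc and iron genes. The cause of these shifts was not tested.

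Of 228 named genes, the number whose call was lost was 22 with voom, 19 with only the 7 animals, 8 with gestational age as a covariate, 45, 39 and 34 without LPS animals 240, 239 and 242, and 29, 26, 20 and 7 without controls 092, 113, 101 and 209. No paired analysis was possible because the groups share no animal numbers. Genes under about 1 CPM rest on few counts and their fold changes depend on the prior count.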

Other observations

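Some genes of immune cells outside the lists were called higher at 5 days. They were chosen after their values were seen, so their direction is a description. XCR1, a chemokine receptor of cross-presenting dendritic cells, was at 2.48, 4.35, 4.08 and 5.32 CPM in the controls, at 10.5, 9.18 and 13.9 CPM with LPS 5d and at 4.15 ± 0.999 CPM (SD, n = 4) at 16 hours. All LPS 5d animals were above the controls and the 16-hour mean. CLEC9A, a receptor for dead cells on the same dendritic cells, was at 0.474 to 0.603 CPM and at 2.07, 1.80 and 3.04 CPM, and BATF3, a factor for their development, at 1.36 ± 0.175 and 5.39 ± 0.683 CPM. The mast cell chymase CMA1 was at 0.324 to 1.14 CPM in the controls and at 8.13, 6.18 and 2.14 CPM with LPS 5d. In the list of mast cell and eosinophil genes, however, 1 of 10 was called and 4 were on the lower side (median 0.13), and the mast cell receptor gene KIT was at 108 ± 14.6 and 74 ± 36 CPM and was not called. A pair of enzymes of tryptophan breakdown were higher: IDO1 was at 11 ± 2.1 and 26.6 ± 3.52 CPM, after 262 ± 104 CPM at 16 hours, and KYNU at 1.17 ± 0.410 and 6.95 ± 1.16 CPM. SLAMF7, a receptor of activated lymphocytes and macrophages, was at 0.522 to 0.710 CPM and at 3.31, 2.27 and 4.04 CPM. Of lymphocyte genes outside the lists, IL2RA, a chain of the interleukin-2 receptor, was at 1.22 ± 0.384 and 4.52 ± 0.899 CPM and lost its call with limma's voom weights (adjusted p = 0.0707). CTLA4, TIGIT and CXCR3 were called too, on means of 3.75, 7.75 and 10.8 counts in the controls, and lost the call without LPS animal 240, without 239 or 240, and without 239 in turn.

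Genes that receptor tyrosine kinase signalling induces as its own inhibitors or effectors were described with a list of 16 that was also drawn up after the values were seen. Of these 6 were called lower, 14 were on the lower side and the median log2 fold change was -0.54. Without LPS animal 239 only 2 were called (SPRY4 and SPRED1), as the calls of ETV1, ETV4, ETV5 and DUSP6 were lost. ETV4 (-1.06) also lost its call without LPS animal 242 or control 101 or 113, and ETV5 (-1.04) without control 209 (-0.94) and with gestational age as a covariate. The summed CPM of the list was 1293 to 1493 in the controls and 850 to 920 with LPS 5d. SPRED1, an inhibitor of the RAS pathway, was at 85.2, 89.8, 88.3 and 46.7 CPM and at 35.1, 30.6 and 34.1 CPM, with control 209 the lowest of the controls. ETV1, a transcription factor of the same pathway, was at 35.8, 33.9, 41.1 and 40.7 CPM and at 14.4, 21.3 and 18.4 CPM, and its change of -1.08 was -0.90 without LPS animal 239. DUSP6, a phosphatase that inactivates ERK, was called (-1.20), but LPS animal 242 (131 CPM) lay above control 209 (105 CPM). It lost its call without LPS animal 239 or 240 or control 092, 101 or 113 (-1.20 to -0.95). SPRY2 was at 50 ± 3.87 and 51.3 ± 7.61 CPM.

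Outside the lists, VEGFD and VIPR2 were called lower, and both were chosen after their values were seen. VEGFD, a lymphatic growth factor, was at 292, 198, 227 and 157 CPM in the controls, at 85.6, 68.6 and 86.0 CPM with LPS 5d and at 32.1 ± 6.26 CPM at 16 hours. VIPR2, a receptor for vasoactive intestinal peptide, was at 66.8 ± 14.4 and 24.5 ± 4.68 CPM, near its 28.3 ± 5.52 CPM at 16 hours.

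Heart muscle genes were high in LPS animal 240. Their summed CPM was 1552 there and 104 to 182 in the other 6 animals. MYL7, the atrial myosin light chain, was at 229 CPM in animal 240 and at 0.278 to 4.90 CPM in the others, and the cardiac actin gene ACTC1 was at 251 CPM and at 1.38 to 6.81 CPM. TTN, the giant sarcomere protein, was called higher (2.38), and without animal 240 its change was 1.73 with an adjusted p of 0.0538 (limma). How much of the other values of animal 240 moved with these genes was not tested.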
